A study of Mus musculus with 8 samples.

Results

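The SLC25 family comprises the mitochondrial carriers, small proteins of the inner mitochondrial membrane that exchange metabolites, nucleotides and cofactors between the cytosol and the matrix. Members were chosen as every row of the deposited expression table whose gene symbol was Slc25a followed by a number and whose average level lay above the lowest value of the table. Of 47 such genes, 45 met the rule, among 18937 genes with reads and 27179 genes listed in all. *Slc25a41* and *Slc25a54*, both relatives of the ATP-Mg/phosphate carriers, were at the lowest value and were the members without reads. The 45 carriers were grouped by substrate into carnitine, citrate and other carboxylates, aspartate-glutamate, phosphate, nucleotides, amino acids, cofactors and metals, uncoupling-protein-like members, and a group with no substrate assigned.

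RNA was sequenced from the livers of adult male C57BL/6NHsd mice that had been fasted for 6 hours, with 4 wild-type libraries (V227) and 4 libraries from mice homozygous for *Ppara* V227A (A227). PPARα is the nuclear receptor through which the liver responds to fatty acids in fasting. The variant had been introduced into zygotes by adenine base editing and was carried forward from 1 heterozygous founder backcrossed to C57BL/6NHsd, so that it was present in the germline and was not restricted to hepatocytes. The level used here was the average over all 8 libraries as the authors computed it, which mixes both genotypes. It carries no spread between libraries and no wild-type or V227A value of its own, so no comparison of V227A with wild-type is given and the order of neighbouring levels could not be tested.

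Mitochondrial carriers link the cytosolic and matrix pathways of hepatic metabolism. Fatty acids enter the matrix as acylcarnitines, citrate leaves it to supply lipid synthesis, the urea cycle depends on ornithine exchange and on aspartate export, and oxidative phosphorylation depends on import of phosphate and on exchange of ADP for ATP. Several carriers occur as closely related genes that differ in the tissues in which they are known to be used.

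Levels are given as log2 CPM, the log2 of the reads of a gene per 1000000 counted reads (CPM), and, wherever genes are compared with each other, as log2 CPM per kb, which divides by the length of the longest annotated transcript. The lowest value of the table, -3.78 log2 CPM, was shared by 8242 genes and corresponds to no reads. Read with the prior count of 2 that edgeR adds by default, that value gives a mean effective library of 27474001 reads, and the reads behind each carrier were estimated from it. The lowest levels are raised and the differences that involve them are reduced by this prior count. Hepatocyte markers were abundant, from 10.85 log2 CPM for *Cps1* to 16.09 for *Alb*. The Kupffer cell markers *Adgre1*, *Cd5l* and *Clec4f* were at 2.25, 5.77 and 6.36 log2 CPM, respectively, and the stellate, endothelial and cholangiocyte markers lay between 0.65 for *Epcam* and 5.47 for *Stab2*. The skeletal muscle markers *Acta1*, *Ckm* and *Myh4* were at -0.40, -1.41 and -1.46 log2 CPM, the brown fat markers *Cidea* and *Ucp1* were at -2.65 and -3.02, and the testis markers *Prm1* and *Tnp1* had no reads. The libraries were of whole tissue, in which fewer cells of a type and less RNA per cell cannot be told apart.

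As a family the carriers were well represented in liver. Their median was 2.79 log2 CPM per kb, beside 0.55 for the 17956 genes with reads that had an annotated length, and 33 of the 45 carriers exceeded the median of all genes on that scale. The median carrier rested on an estimated 705 reads per library, beside 100.1 for all genes with reads. At or above 0 log2 CPM there were 38 of the 45 carriers (84.4%), beside 61.8% of all genes with reads. Of those 38 carriers, 25 were above the median log2 CPM of the genes at or above 0. All 45 carriers are annotated as protein-coding, whereas the genes compared with them were not limited to that type. Together the carriers took 4635 CPM, or 0.463% of the total, and the 5 with the most reads, *Slc25a47*, *Slc25a39*, *Slc25a23*, *Slc25a15* and *Slc25a3*, took 51.5% of the family's reads. The 12 carriers with the most reads took 84.3%. The family thus spanned a wide range, from 9.00 log2 CPM per kb for *Slc25a47* to -4.48 for *Slc25a31*, and 4 carriers had fewer than 10 estimated reads per library.

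**Figure D1:**
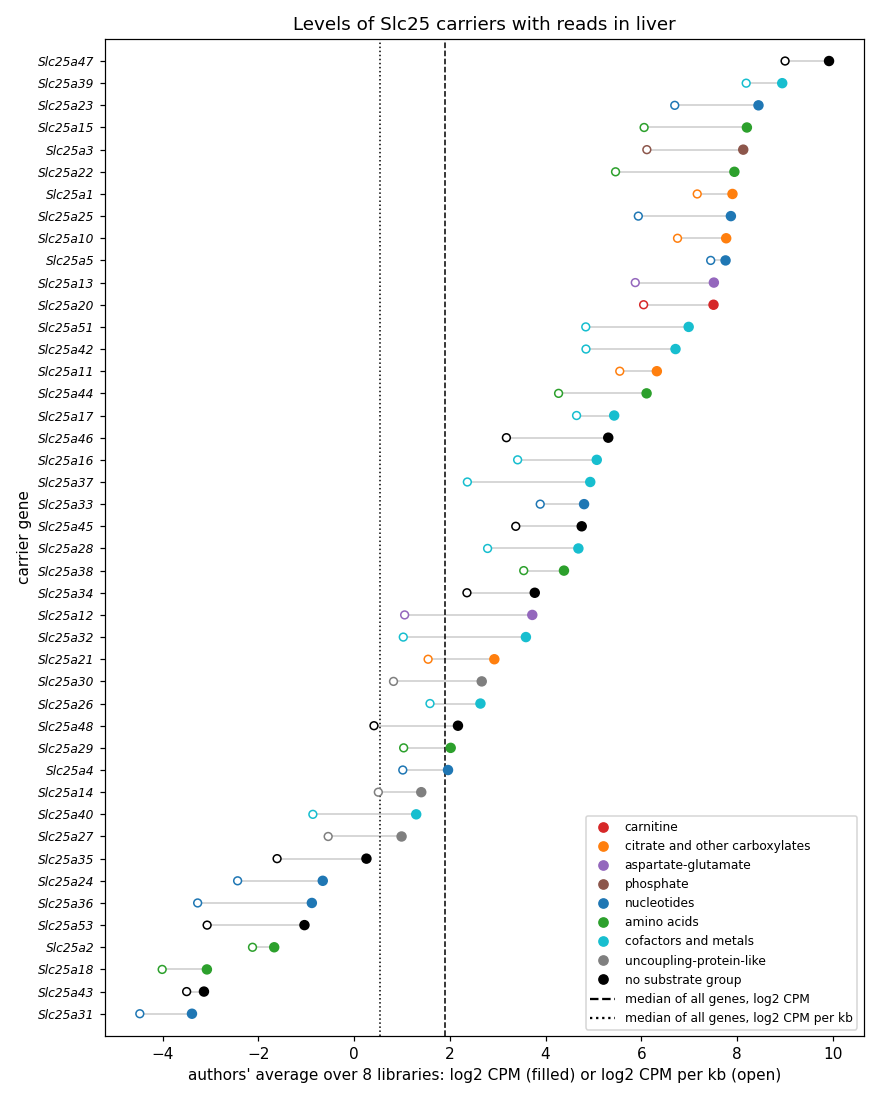
Level of 44 of the 45 carriers with reads, ordered by log2 CPM. The horizontal axis gives the authors' average over 8 libraries as log2 CPM (filled points) and as log2 CPM per kb of transcript (open points), colours give the substrate group, and vertical lines give the medians of all genes on the 2 scales. *Slc25a47* and *Slc25a39* are first and second on both scales, and the open points run from -4.48 to 9.00 log2 CPM per kb.

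The most abundant carrier had no assigned substrate group here. *Slc25a47*, a carrier known for its enrichment in liver, stood at 9.92 log2 CPM and 9.00 log2 CPM per kb, at percentile 99.3 of all genes per kb and with an estimated 26648 reads per library. It was followed per kb by *Slc25a39*, a mitochondrial glutathione carrier, at 8.19, *Slc25a5*, the ADP/ATP exchanger ANT2, at 7.45, *Slc25a1*, the citrate/malate exchanger, at 7.17, and *Slc25a10*, the dicarboxylate/phosphate exchanger, at 6.76. The order after *Slc25a39* depended on the length used. Per kb of coding sequence, *Slc25a15* at 8.35 and *Slc25a3* at 8.03 were above *Slc25a5* at 7.92. Of the 10 carriers with the most reads, 9 were also among the first 10 per kb. *Slc25a22*, a glutamate carrier with a long transcript, left the first 10 at 5.46 log2 CPM per kb, and *Slc25a20* entered at 6.05. The carriers that left and entered depended on the length used. *Slc25a20* also entered per kb of coding sequence, at 7.66. Per kb of all exons *Slc25a13* entered at 5.59, and *Slc25a20* was below it at 5.23. *Slc25a22* stayed at 7.99 per kb of coding sequence and 5.36 per kb of all exons, and *Slc25a25* left at 7.25 and 4.90, respectively.

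The promoters of *Slc25a47* and *Slc25a39*, the carriers with the highest levels per kb, and of *Slc25a20*, the carrier of acylcarnitines, are shown so that the DNA at the start of these genes can be read beside their levels. Each window runs from 250 bases before to 50 bases after the annotated RefSeq start on GRCm38.p6. They lie at chr12:108850879-108851178 on the plus strand, chr11:102407468-102407767 on the minus strand and chr9:108661886-108662185 on the plus strand, respectively. Capitals mark the nuclear receptor half-site AGGTCA, the CCAAT box and the GC box GGGCGG, or the reverse complement of each.
Slc25a47: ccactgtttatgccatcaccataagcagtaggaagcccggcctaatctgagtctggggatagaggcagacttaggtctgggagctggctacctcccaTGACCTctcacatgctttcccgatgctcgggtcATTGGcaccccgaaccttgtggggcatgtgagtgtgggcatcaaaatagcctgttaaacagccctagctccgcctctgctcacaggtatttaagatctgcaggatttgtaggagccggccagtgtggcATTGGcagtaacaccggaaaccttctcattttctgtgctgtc
Slc25a39: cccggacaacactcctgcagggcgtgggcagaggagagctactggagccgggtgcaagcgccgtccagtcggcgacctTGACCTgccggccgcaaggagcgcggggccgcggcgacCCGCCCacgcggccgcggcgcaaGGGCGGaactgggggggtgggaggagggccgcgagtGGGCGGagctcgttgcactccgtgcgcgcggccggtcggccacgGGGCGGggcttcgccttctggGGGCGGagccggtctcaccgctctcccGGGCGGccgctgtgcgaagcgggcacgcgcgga
Slc25a20: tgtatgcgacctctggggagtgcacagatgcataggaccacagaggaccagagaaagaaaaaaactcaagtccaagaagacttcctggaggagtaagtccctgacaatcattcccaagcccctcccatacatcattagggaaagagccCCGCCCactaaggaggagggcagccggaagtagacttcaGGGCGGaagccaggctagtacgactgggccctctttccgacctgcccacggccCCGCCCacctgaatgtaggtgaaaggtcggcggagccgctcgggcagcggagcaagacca

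The *Slc25a47* window held AGGTCA once on the reverse strand and CCAAT in 2 places, with a GC content of 53.3%. The *Slc25a39* window, at 77.3% GC, also held AGGTCA once on the reverse strand, together with GGGCGG or its complement in 6 places. The *Slc25a20* window held GGGCGG or its complement in 3 places and no exact AGGTCA. Promoter windows were listed for 35 of the carriers, 45 windows in all, and were searched on both strands for exact matches only. AGGTCA occurred in 4 of them (8.89%), beside 13.8% of the 16988 windows of genes with reads and 16.3% of all 32851 windows, and the genes were *Slc25a34*, *Slc25a39*, *Slc25a45* and *Slc25a47*. The direct repeat of 2 such half-sites with 1 base of any kind between them, which PPARα is known to bind with RXR and which contains AGGTCA at both ends, occurred in 0 carrier windows and in 0.0471% of windows of genes with reads. TCAAGGTCA, the oestrogen-related receptor element, which also contains AGGTCA, occurred in 0 carrier windows and 0.265% of those windows. GGGCGG occurred in 38 carrier windows (84.4%) beside 55.5% of windows of genes with reads, CCAAT in 22 (48.9%) beside 37.4%, and TATAAA in 2 (4.44%) beside 8.81%. Windows of the same gene can overlap, as those of *Slc25a23* do, so a site can be counted more than once. Counts per gene were not made. The median GC content was 59.0% both for carrier windows and for windows of genes with reads. These counts describe exact matches within 300 bases of an annotated start and no others. Sites that differ from the searched letters were not counted, either in carrier windows or in those of other genes. Whether PPARα binds any of these windows was not tested.

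Carnitine and citrate carriers were among the well-expressed members. *Slc25a20*, the carnitine/acylcarnitine exchanger that brings long-chain acyl groups into the matrix for oxidation, stood at 7.51 log2 CPM and 6.05 log2 CPM per kb, with an estimated 4999 reads per library. Its gene lies at chr9:108662088-108684641 on the plus strand and has 9 exons in its main transcript. The 4 carriers of citrate and other carboxylates had a median of 6.15 log2 CPM per kb. *Slc25a1*, which exports citrate, was at 7.17 and *Slc25a10*, which exchanges dicarboxylates for phosphate, at 6.76 log2 CPM per kb. *Slc25a11*, the oxoglutarate/malate exchanger of the malate-aspartate shuttle, was at 5.55. *Slc25a21*, the oxoadipate carrier of lysine and tryptophan breakdown, was lower, at 1.55 log2 CPM per kb with an estimated 207 reads per library.

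**Figure D2:**
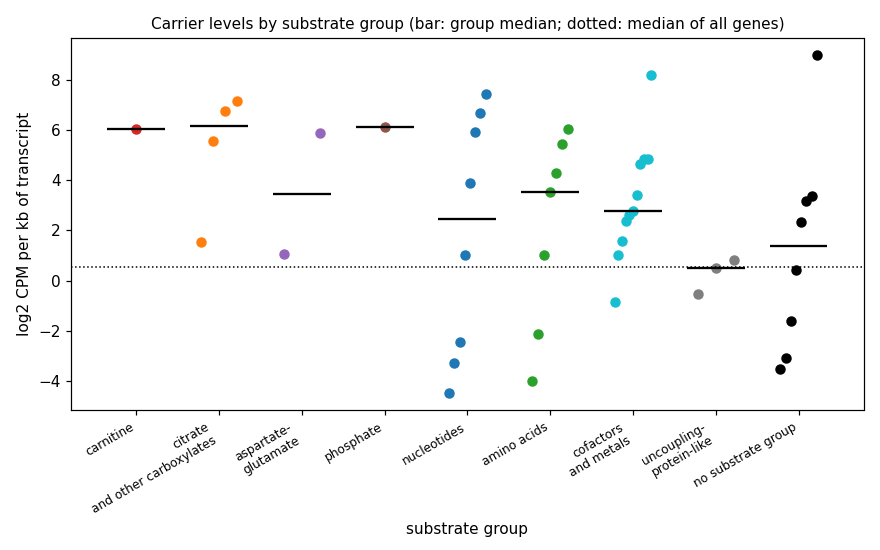
Level of each carrier by substrate group. The vertical axis gives log2 CPM per kb of transcript, each point is 1 carrier, black bars are group medians and the dotted line is the median of all genes. The group of citrate and other carboxylates has a median of 6.15. The nucleotide group has a median of 2.45 and runs from -4.48 to 7.45.

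The aspartate-glutamate exchangers differed widely in level. *Slc25a13*, or citrin, which passes aspartate to the cytosol for the urea cycle and for the malate-aspartate shuttle, was at 5.87 log2 CPM per kb. *Slc25a12*, or aralar, the form known from muscle and brain, was at 1.05. Citrin held 93.3% of the CPM of the 2 genes, whose coding sequences were 71.9% identical.

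*Slc25a3*, the phosphate carrier that supplies ATP synthase, was at 8.13 log2 CPM and 6.12 log2 CPM per kb. The 8 nucleotide carriers ran from -4.48 to 7.45 log2 CPM per kb, with a median of 2.45. Among the ADP/ATP exchangers, *Slc25a5* (ANT2) was at 7.45 log2 CPM per kb, *Slc25a4* (ANT1), the form known from heart and muscle, at 1.02, and *Slc25a31* (ANT4), known from testis, at -4.48 with an estimated 4.98 reads over all 8 libraries. *Slc25a5* held 98.2% of the CPM of these exchangers. Of the carriers that exchange ATP-Mg for phosphate, *Slc25a23* and *Slc25a25* were at 6.70 and 5.94 log2 CPM per kb, and *Slc25a24* was at -2.43 with an estimated 15.4 reads per library. For the pyrimidine nucleotide carriers, *Slc25a33* was at 3.89 and *Slc25a36* at -3.27 log2 CPM per kb.

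*Slc25a5* and *Slc25a4* had the most similar coding sequences of any pair of carriers, at 77.4% identity, and differed at 202 of 894 coding bases. Their first 120 coding bases are shown because the level of each gene depends on reads being assigned to the right member. Capitals mark the 26 bases at which they differ in this stretch.
Slc25a5: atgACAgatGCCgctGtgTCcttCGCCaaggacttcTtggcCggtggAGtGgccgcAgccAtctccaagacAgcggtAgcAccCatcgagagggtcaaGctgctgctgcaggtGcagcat
Slc25a4: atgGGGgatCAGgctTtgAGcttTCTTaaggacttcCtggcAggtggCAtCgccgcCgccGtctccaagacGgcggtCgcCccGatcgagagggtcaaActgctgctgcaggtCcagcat

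The main transcript of *Slc25a4* shared no window of 50 bases with another annotated gene, whereas that of *Slc25a5* shared many with processed pseudogenes. Of all 50-base windows of its main transcript, 46.6% occurred in at least 1 of 9 annotated processed pseudogenes, with 29.1% in *Gm5560* and 22.3% in *Gm5529*. None of the 9 was listed in the table by symbol, and how reads with several matches were counted is not given in the sources used here, so the level of *Slc25a5* is uncertain to that extent. Shared windows made up 11.8% for *Slc25a36*, 10.3% for *Slc25a40* and 8.07% for *Slc25a37*, and 34 carriers had none.

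The 7 amino acid carriers ran from -4.01 to 6.06 log2 CPM per kb, with a median of 3.54. *Slc25a15* (ORC1), which exchanges ornithine for citrulline in the urea cycle, was at 6.06 log2 CPM per kb, and *Slc25a22* (GC1), which imports glutamate, was at 5.46. Their relatives *Slc25a2* (ORC2) and *Slc25a18* (GC2) were at -2.12 and -4.01, with an estimated 6.63 and 1.26 reads per library. *Slc25a2* lies wholly within gene models on the opposite strand, and the strand setting used for counting is not given in the sources used here. *Slc25a44*, the branched-chain amino acid carrier, was at 4.27 log2 CPM per kb, *Slc25a38*, the glycine carrier that feeds haem synthesis, at 3.54, and *Slc25a29*, a carrier of basic amino acids, at 1.03.

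The 11 carriers of cofactors and metals had 65.5 or more estimated reads per library and had a median of 2.79 log2 CPM per kb. *Slc25a39* held 55.1% of the group's CPM and 99.5% of those of the 2 glutathione carriers, the other being *Slc25a40* at -0.86 log2 CPM per kb. The coenzyme A carriers *Slc25a42* and *Slc25a16* were at 4.84 and 3.42, and *Slc25a51*, which imports NAD, was at 4.84 log2 CPM per kb. *Slc25a17*, a carrier of peroxisomes rather than mitochondria, was at 4.65. The iron importers *Slc25a28* (mitoferrin 2) and *Slc25a37* (mitoferrin 1) were at 2.79 and 2.37 log2 CPM per kb. *Slc25a26*, which carries S-adenosylmethionine, was at 1.58 and *Slc25a32*, which carries folate or FAD, at 1.03 log2 CPM per kb.

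The uncoupling-protein-like carriers and most members without an assigned substrate were lower. *Slc25a30*, *Slc25a14* and *Slc25a27* were at 0.82, 0.51 and -0.54 log2 CPM per kb, and together they held 0.237% of the family's CPM. In the group with no substrate assigned, *Slc25a47* accounted for 91.8% of the CPM of 8 carriers. *Slc25a45* and *Slc25a46*, the latter an outer membrane protein that affects mitochondrial shape, were at 3.38 and 3.18 log2 CPM per kb, *Slc25a34* was at 2.36 and *Slc25a48* at 0.41. *Slc25a35*, *Slc25a53* and *Slc25a43* were at -1.61, -3.07 and -3.50. The value for *Slc25a43* rested on an estimated 1.12 reads per library and depends on the prior count. *Slc25a35* overlaps *Rangrf*, and *Slc25a53* overlaps *Zcchc18*, on the opposite strand. In all, 17 carriers overlap a gene on the opposite strand, 10 of them a coding gene, and among the 15 carriers with the most reads the overlaps with a coding gene were *Slc25a23* with *Crb3* (759 bases), *Slc25a25* with *Naif1* (989 bases) and *Slc25a11* with *Rnf167* (245 bases).

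Carriers were then compared as 13 pairs, of which 12 were made of genes grouped by a shared substrate or as uncoupling-protein-like. The other pair, *Slc25a47* and *Slc25a48*, had no substrate assigned. Its coding sequences were 55.9% identical, beside a median of 56.4% over all pairs of carriers. Each was closer to another carrier, *Slc25a47* to *Slc25a29* (64.8%) and *Slc25a48* to *Slc25a45* (62.4%). In each pair the gene named first is the one with the higher log2 CPM, so that direction was fixed by the naming. The differences ranged widely per kb. *Slc25a5* exceeded *Slc25a31* by 11.93 and *Slc25a4* by 6.43, *Slc25a22* exceeded *Slc25a18* by 9.47, and *Slc25a23* exceeded *Slc25a24* by 9.13 on the log2 CPM per kb scale. *Slc25a39* exceeded *Slc25a40* by 9.05, *Slc25a47* exceeded *Slc25a48* by 8.59, *Slc25a15* exceeded *Slc25a2* by 8.18 and *Slc25a33* exceeded *Slc25a36* by 7.16 on this scale. In these 8 pairs 1 gene supplied nearly all reads. The values for *Slc25a31* and *Slc25a18*, which rested on an estimated 0.623 and 1.26 reads per library, depend on the prior count. As ratios per kb, *Slc25a5* over *Slc25a31* was 3895 from the CPM and 16394 from the estimated reads, and *Slc25a22* over *Slc25a18* was 710 and 1841. Smaller differences separated *Slc25a13* from *Slc25a12* (4.82), *Slc25a42* from *Slc25a16* (1.43), *Slc25a23* from *Slc25a25* (0.76) and *Slc25a30* from *Slc25a14* (0.32) on the log2 CPM per kb scale. For the mitoferrins the order depended on length: *Slc25a37* was higher by 0.25 in log2 CPM and lower by 0.42 in log2 CPM per kb. With no spread between libraries, none of the pair differences could be tested. Those of 0.76, 0.42 and 0.32 per kb cannot be distinguished from no difference.

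**Figure D3:**
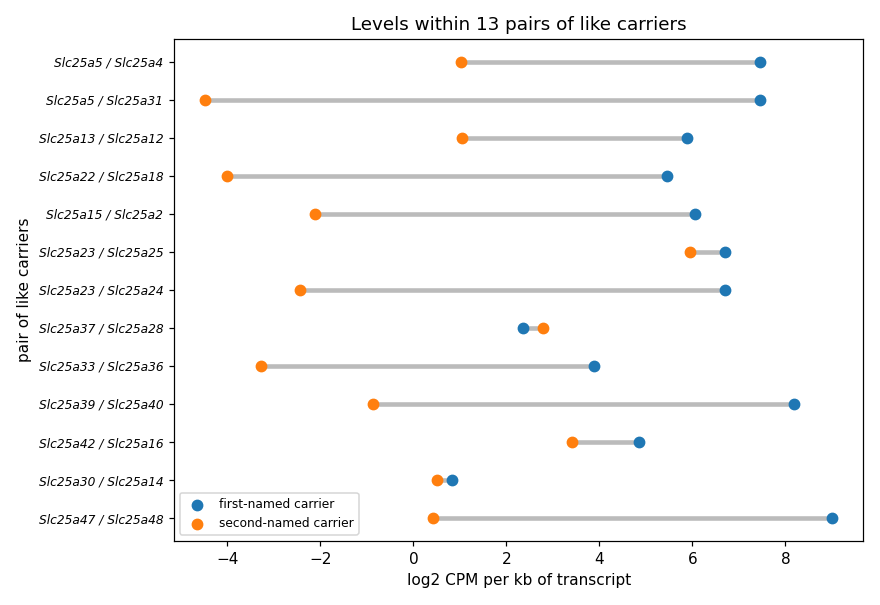
Levels within the 13 pairs of carriers compared. The horizontal axis gives log2 CPM per kb of transcript, blue points are the first-named gene and orange points the second-named gene of each pair. *Slc25a5* and *Slc25a31* lie farthest apart, at 11.93, a value that depends on the prior count, and *Slc25a37* lies below *Slc25a28*.

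Sequence similarity varied among the 13 pairs compared, from 55.9% for *Slc25a47* and *Slc25a48* to 77.4% for *Slc25a5* and *Slc25a4*. *Slc25a42* and *Slc25a16*, at 58.7%, and *Slc25a39* and *Slc25a40*, at 59.6%, were also near the median of all pairs. Over the 1081 pairs of the 47 carriers, the median identity of aligned coding sequences was 56.4% and the lowest was 50.7%, and 6 pairs exceeded 70%. After *Slc25a5* and *Slc25a4* these were *Slc25a15* and *Slc25a2* (74.8%), *Slc25a14* and *Slc25a30* (71.9%), *Slc25a12* and *Slc25a13* (71.9%), *Slc25a28* and *Slc25a37* (71.1%), and *Slc25a18* and *Slc25a22* (71.0%). Among these 6 pairs the mitoferrins differed by 0.42 and *Slc25a14* and *Slc25a30* by 0.32 on the log2 CPM per kb scale, and the other 4 by 4.82 to 9.47. Coding lengths ran from 795 to 2031 bases with a median of 954, and the longest were the aspartate-glutamate exchangers, whose proteins carry an added calcium-binding region.

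The carriers were spread over 19 chromosomes, with 4 pairs of neighbouring genes that had no coding gene between them. On chromosome 12, *Slc25a29* (chr12:108825873-108835883, minus strand) and *Slc25a47* (chr12:108836046-108856815, plus strand) are annotated 162 bases apart in opposite directions. *Slc25a29* was at 1.03 and *Slc25a47* at 9.00 log2 CPM per kb. The *Slc25a47* gene model includes non-coding transcripts upstream, and its coding transcript begins at position 108851129. On chromosome 17, *Slc25a41*, without reads, lies 2056 bases from *Slc25a23*, at 6.70 log2 CPM per kb. On chromosome 3, *Slc25a54*, without reads, lies 6461 bases from *Slc25a24*, at -2.43. On the X chromosome, *Slc25a43*, at -3.50 with an estimated 1.12 reads per library, lies 18448 bases from *Slc25a5*, at 7.45 log2 CPM per kb. Neighbouring carriers thus differed in level in all 4 places.

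Partner genes, the enzymes, channels and transporters that handle the same substrates, were listed for 6 groups. For carnitine, *Cpt1a* and *Cpt2*, which form and release acylcarnitines on either side of the inner membrane, were at 6.74 and 6.06 log2 CPM per kb, and *Acadm*, a dehydrogenase of fatty acid oxidation, was at 6.86. *Slc25a20*, at 6.05, was close to the median of its 5 partners, 6.06 log2 CPM per kb. *Crat*, carnitine acetyltransferase, and *Slc22a5*, the plasma membrane carnitine transporter, were lower, at 4.04 and 3.50. For citrate, the 5 partners had a median of 5.19 log2 CPM per kb. The 4 carriers of citrate and other carboxylates had a median of 6.15, but only *Slc25a1* among them is grouped under citrate itself. *Acly*, which cleaves exported citrate, was at 4.68 and *Slc25a1* at 7.17 log2 CPM per kb.

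Most urea cycle and shuttle enzymes had higher levels per kb than the carriers of their group. All 8 urea cycle and glutamate enzymes, from *Otc* at 6.86 to *Arg1* at 9.89 log2 CPM per kb of transcript, were above every amino acid carrier. The highest of these carriers was *Slc25a15* at 6.06. In log2 CPM, *Otc* was at 8.45 and *Slc25a15* at 8.21. *Slc25a15* has a long transcript and was at 8.35 per kb of coding sequence. Partner genes were not compared on other lengths, so the order of close levels may depend on the length used. Of the 6 genes of the malate-aspartate and glycerol phosphate shuttles, 5 were above citrin, at 5.87, and *Gpd2* was below it at 2.42 log2 CPM per kb. For phosphate and nucleotides, the ATP synthase subunit genes *Atp5f1b* and *Atp5f1a*, at 9.14 and 8.48 log2 CPM per kb, were above every carrier of these substrates, and the other 6 partners were not. *Mat1a*, which makes S-adenosylmethionine, was at 9.74 log2 CPM per kb, and it was the one of 12 cofactor and metal partners that was above *Slc25a39*, at 8.19. *Slc25a26*, which carries its product into mitochondria, was at 1.58.

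**Figure D4:**
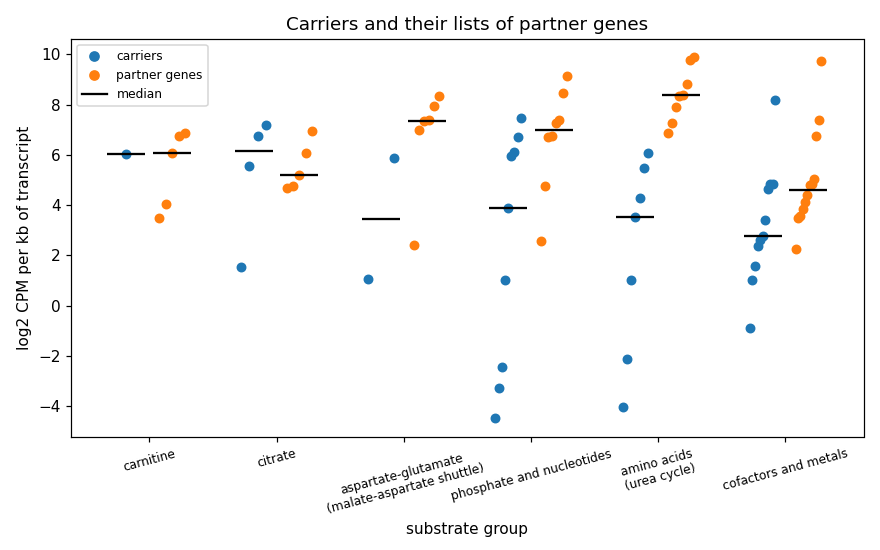
Levels of carriers (blue) and of their lists of partner genes (orange) by substrate. The vertical axis gives log2 CPM per kb of transcript, each point is 1 gene and black bars are medians. All 8 partner genes of the amino acid group lie above the 7 carriers. The carriers of citrate and other carboxylates have a median of 6.15, and the citrate partners have a median of 5.19.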

How the data were processed

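Libraries were stranded and poly-A selected, from 4 wild-type and 4 V227A livers, and were sequenced as paired ends. Per the labels and the study's methods, reads were trimmed with Trimmomatic, checked with FastQC, aligned to GRCm38/mm10 with STAR, counted with featureCounts and analysed with edgeR. Versions, the annotation, the strand setting and the treatment of multiply mapped reads are not given in the sources used here. The deposited table holds, for each gene, the authors' average log2 CPM over all libraries, and the fold change, F statistic, p-value and FDR of their own comparison of V227A with wild-type. The columns of that comparison were not used, the table has no column per library, and so no V227A effect was computed here.

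The average log2 CPM was used as deposited. CPM was its antilog, and reads per library were estimated from the lowest value of the table with a prior count of 2. On that basis 99.9% of the 2378 genes with 1 to 5 estimated reads in total came within 0.1 of a whole number, against 35.3% with a prior count of 1. The mean effective library was 27474001 reads. The depth of each library is unknown. Levels per kb used the longest GENCODE vM21 transcript, available for 94.8% of genes with reads. Coding sequences of GENCODE vM21 were aligned globally with Biopython 1.88 (match 2, mismatch -1, gap opening -5, gap extension -1), in place of the protein alignment that had been planned. Promoters were taken from RefSeq. Partner symbols of ATP synthase were matched through Entrez gene identifiers. Scripts used Python 3.11.15, pandas 2.3.3, numpy 2.4.6 and matplotlib 3.10.9, and the arithmetic was tested on simulated data.

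The text names the carriers with reads, except 1 that is counted in the totals but is not reported here by name, those without reads by name, the listed partner genes, the cell type markers, and *Ucp1*, *Ucp2*, *Ucp3*, *Mtch1*, *Mtch2* and *Ppara*. Members and lists were chosen with earlier results of these data known. The promoters shown, the neighbouring pairs, the shared-sequence checks and the pseudogenes and overlapping genes named were chosen after levels had been seen. Levels are descriptions and no test was made.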

Additional observations from a re-analysis of the deposited data

How the results depend on the processing

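No value per library was available, so leaving out a library was not possible, and the spread between libraries is unknown. No paired analysis was possible because the table has no columns per library and no test was made. Depth limits the lowest members, since 4 carriers had fewer than 10 estimated reads per library. Adding *Ucp1*, *Ucp2*, *Ucp3*, *Mtch1* and *Mtch2* raised the summed level from 4635 to 4868 CPM and the number of genes from 45 to 50. The share of the 5 most abundant carriers, 51.5%, was 63.1% per kb of transcript, 51.6% per kb of coding sequence, 61.0% per kb of all exons and 49.0% with those 5 genes added. Of the 45 carriers, the number above the median of all genes was 34 in log2 CPM, 33 per kb of transcript and 34 on both other lengths. Where carriers and genes below 0 log2 CPM were left out, 25 of the remaining 38 carriers were above the median of the remaining genes. Of 39 pair differences under other lengths, 37 kept their direction, and *Slc25a37* over *Slc25a28* reversed to -0.42 per kb of transcript and -0.44 per kb of all exons. With a prior count of 1 the median carrier had an estimated 352 reads per library, against 705. Coding length from GENCODE and the length of all exons were chosen after seeing the data, and the coding length of RefSeq proteins was not run because no protein table was used here.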

Other observations

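Relatives of the family that carry other symbols were read on the same scale. *Ucp2*, the uncoupling protein known from immune and other cells, was at 4.96 log2 CPM and 2.96 log2 CPM per kb, above the uncoupling-protein-like carriers, of which *Slc25a30* was the highest at 0.82 per kb. *Ucp1* of brown fat and *Ucp3* of muscle were at -3.73 and -4.16 log2 CPM per kb, with an estimated 1.40 and 1.76 reads per library. The outer membrane relatives *Mtch2* and *Mtch1* were at 5.51 and 4.73 log2 CPM per kb, within the range of the more abundant carriers. *Ppara* itself, the edited gene, was at 6.60 log2 CPM per kb, an average over both genotypes, beside 6.05 for *Slc25a20*.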
